A study of Mus musculus with 14 samples.

Results

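The genes examined here encode the subunits and dedicated partners of the mouse proteasome. They were taken as the protein-coding autosomal genes of GENCODE release M21 with symbols Psma, Psmb, Psmc, Psmd, Psme, Psmf or Psmg followed by a number, which gave 47 of 20807 autosomal protein-coding genes. Of these, 42 are called constitutive here, meaning every member outside 5 named forms. The 42 include assembly chaperones, and Psme1 and Psme2 of the interferon-inducible activator. The 5 named forms are those of immune cells, thymus or testis, namely Psmb8, Psmb9, Psmb10, Psmb11 and Psma8. A gene received each H3K4me3 peak with at least 1 base inside a window of 1 kb on either side of an annotated transcription start site (TSS), and the 5′ end of the principal transcript served as the principal TSS.

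H3K4me3, trimethylation of lysine 4 of histone H3, was profiled by ChIP-seq in iMEFs, immortalised mouse embryonic fibroblasts. The cells carried a lentiviral FKBP-tagged human ASH2L, and per the study's methods their endogenous Ash2l had been inactivated by deletion of exon 4, so every group, controls included, depended on the fusion protein. ASH2L is a core subunit of the KMT2 methyltransferase complexes that place this mark. The 14 libraries comprised 12 H3K4me3 libraries in 6 groups of 2, from cells without dTAG and from cells treated with dTAG for 30 min, 2 h, 4 h, 8 h or 16 h, and 2 input libraries, 1 without dTAG and 1 after 16 h. Per the study's legends the H3K4me3 libraries came from 1 cell clone, NG3, so the replicates do not cover differences between clones. The data used here are 1 list of 25431 H3K4me3 peaks found across all libraries and 1 list of 32965 putative enhancers defined in control cells. Both give positions with 0 columns of values per sample, so a peak may stem from any group, no value below has a replicate error, and loss of the mark after dTAG was not analysed here. The study's methods set a minimum number of raw reads per ChIP library, and what each library reached cannot be read from the lists. Marker genes fixed for a check of the cell type gave peaks at 10 of 10 fibroblast genes, among them Col1a1 and Prrx1, at 0 of 4 immune cell genes, 0 of 2 endothelial genes and 0 of 1 thymic epithelial genes (Foxn1). Of 3 epithelial genes, Epcam and Cdh1 had a peak, and of 3 germ cell genes only Dazl did, with a peak of 355 bp.

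The proteasome degrades proteins that carry ubiquitin chains. Its 20S core is a barrel of stacked rings, in which the alpha subunits form the gates and the beta subunits hold the protease sites, and its 19S cap recognises, unfolds and feeds in the substrate. Interferon induces beta subunits that replace the constitutive protease subunits and favour the production of peptides for MHC class I molecules. The same machinery removes the FKBP fusion protein in these cells, because dTAG bridges the fusion to the ubiquitin ligase cereblon. H3K4me3 is a mark of active and CpG-rich promoters, and it usually lies over the first nucleosomes downstream of a TSS.

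The promoters of 6 members show the features to which the results return. RefSeq promoter sequences (GRCm38.p6) were read for 39 of the 47 members. Those of Psma8, Psmb1, Psmb2, Psmb7, Psmc3, Psmd3, Psmd7 and Psmg2 were not used here. The stretches below lie upstream of the RefSeq start, run 5′ to 3′ in the direction of transcription and leave out annotated exons. Capitals mark matches on either strand to the motifs ETS core (CCGGAAG), NF-Y box (CCAAT), antioxidant response element or ARE (TGACNNNGC), GC box (GGGCGG), E-box (CACGTG) and ISRE core (GAAANNGAA), with adjacent or overlapping matches run together. Psmb5 and Psmb6 encode protease subunits of the constitutive core, and Psmb10 is the immune form that was most widely marked. Psmd4 and Psmb6 lacked a CpG island. Psmc6 and Psmd14 had their principal TSS in a gap between peaks, although the RefSeq start of Psmc6 lay inside a peak.
Psmb5, chr14:54618023-54618245, minus strand: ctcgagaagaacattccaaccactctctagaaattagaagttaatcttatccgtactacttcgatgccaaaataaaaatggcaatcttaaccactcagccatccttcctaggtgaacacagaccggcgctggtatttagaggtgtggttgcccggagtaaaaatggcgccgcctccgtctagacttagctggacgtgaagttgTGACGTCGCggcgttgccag
Psmb6, chr11:70525107-70525356, plus strand: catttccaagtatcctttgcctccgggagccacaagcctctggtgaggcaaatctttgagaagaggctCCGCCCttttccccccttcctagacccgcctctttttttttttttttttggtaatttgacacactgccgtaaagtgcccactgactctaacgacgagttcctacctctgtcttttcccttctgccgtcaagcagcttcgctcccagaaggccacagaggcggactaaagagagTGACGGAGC
Psmb10, chr8:105938445-105938642, minus strand: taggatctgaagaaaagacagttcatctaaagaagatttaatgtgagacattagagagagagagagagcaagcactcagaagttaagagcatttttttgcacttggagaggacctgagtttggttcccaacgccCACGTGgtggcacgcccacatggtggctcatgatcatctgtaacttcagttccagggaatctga
Psmd4, chr3:95042615-95042864, minus strand: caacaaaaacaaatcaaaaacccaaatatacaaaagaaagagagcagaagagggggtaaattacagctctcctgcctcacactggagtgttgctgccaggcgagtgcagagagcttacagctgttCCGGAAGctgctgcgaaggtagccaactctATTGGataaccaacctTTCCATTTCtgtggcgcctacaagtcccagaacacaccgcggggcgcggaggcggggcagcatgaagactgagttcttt
Psmc6, chr14:45329574-45329787, plus strand: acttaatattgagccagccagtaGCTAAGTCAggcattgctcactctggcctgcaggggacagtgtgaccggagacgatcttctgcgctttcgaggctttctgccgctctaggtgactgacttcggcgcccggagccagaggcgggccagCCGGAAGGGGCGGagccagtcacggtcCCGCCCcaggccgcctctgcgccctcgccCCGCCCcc
Psmd14, chr2:61711444-61711693, plus strand: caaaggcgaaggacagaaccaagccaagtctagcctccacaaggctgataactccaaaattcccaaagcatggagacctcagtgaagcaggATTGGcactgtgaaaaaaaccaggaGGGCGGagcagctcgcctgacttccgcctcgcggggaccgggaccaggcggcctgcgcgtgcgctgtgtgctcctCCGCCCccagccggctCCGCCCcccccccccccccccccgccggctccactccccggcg

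To ask which proteasome genes carried the mark, peaks were counted at each of them. All 42 constitutive members had a peak (100%, Wilson 95% interval 91.6 to 100), and so did 3 of the 5 immune and testis forms (60%, 23.1 to 88.2). In all, 45 of 47 members were marked (95.7%, 85.8 to 98.8), beside 60.3% of all autosomal protein-coding genes. These intervals cover counting only, since genes are not replicates. Among all genes with a CpG island within 1 kb of a TSS, as most members have, 90.2% were marked. The 2 members without a peak were Psma8, the alpha subunit of the testis, and Psmb11, the beta subunit of the thymic cortex. The peak nearest to any start of Psma8 was 22719 bp away. For Psmb11 it was 3235 bp away, and this was the peak of Psmb5, whose principal TSS lies 7288 bp from that of Psmb11 on chromosome 14.

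**Figure D1:**
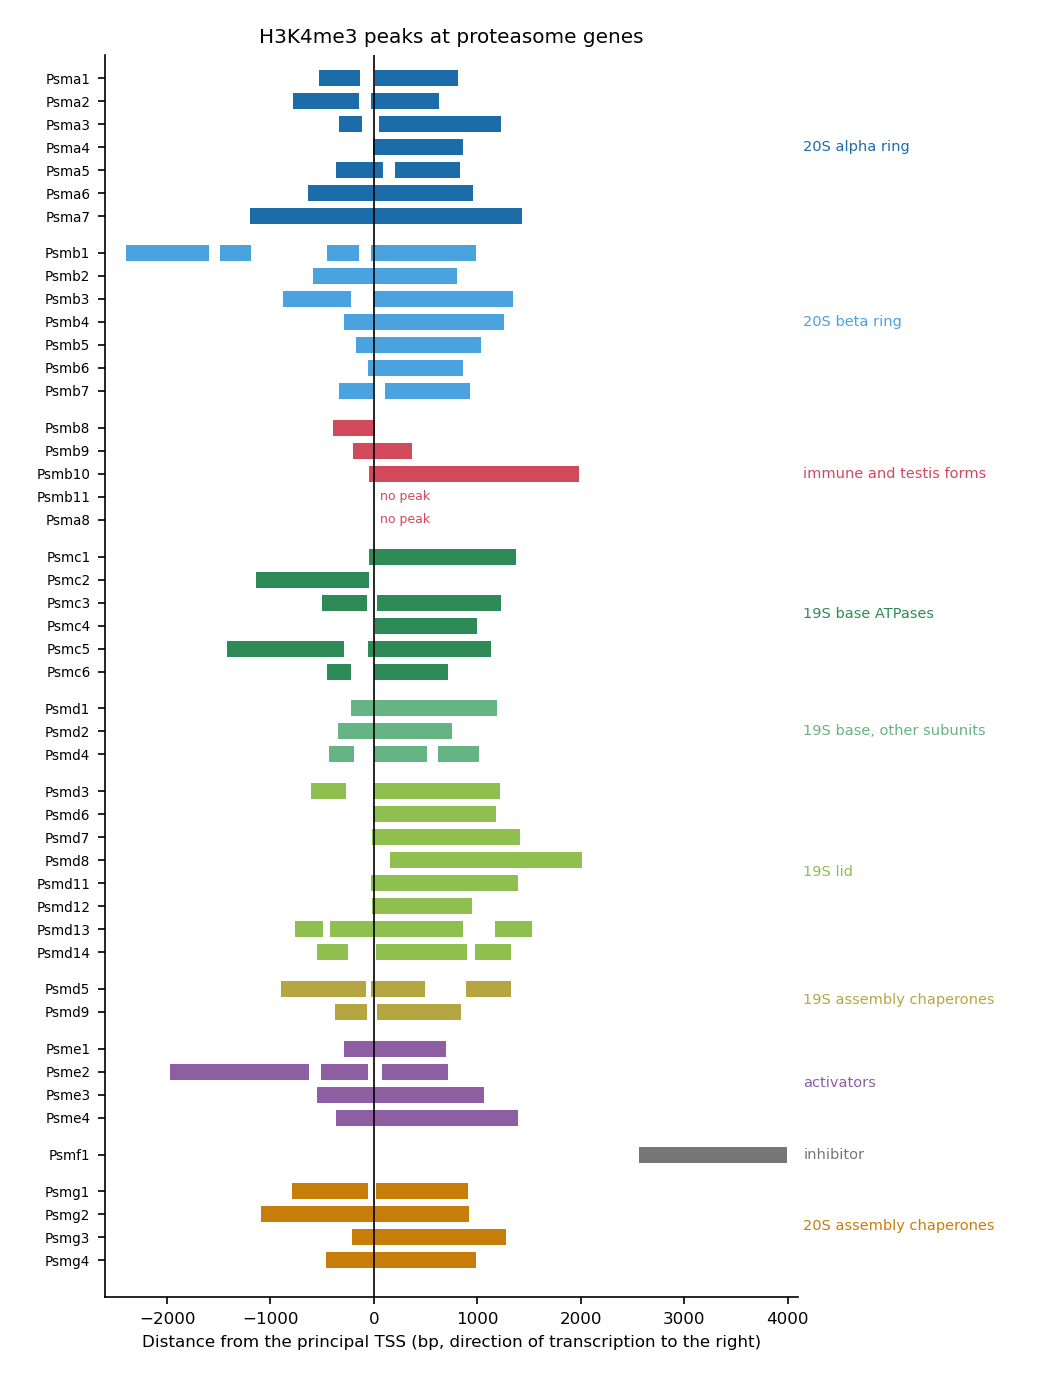
Position of every H3K4me3 peak (bars) assigned to the 47 members, in bp from the principal TSS (vertical line), with transcription to the right and genes coloured by role in the complex. Bars lie mostly to the right of the line, 10 constitutive members have the line in a gap between bars, Psmf1 is marked 2563 to 3991 bp downstream, and Psma8 and Psmb11 have no peak.

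The protease subunits and their immune counterparts were compared gene by gene. Psmb5, the chymotrypsin-like subunit, had a peak of 1212 bp (chr14:54616987-54618198, mm10) that reached from 176 bp upstream to 1036 bp downstream of its TSS. Psmb6, the caspase-like subunit, had 925 bp (chr11:70525326-70526250), of which 60 bp were upstream. At Psmb7, the trypsin-like subunit, the TSS fell between a downstream peak of 821 bp (chr2:38643161-38643981) and an upstream peak of 325 bp. All 3 constitutive protease genes therefore carried most of their marked sequence inside the gene, although Psmb7 had none over the TSS base itself.

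The widest peaks of the marked immune forms ran from 401 to 2037 bp, and those of the constitutive protease genes from 821 to 1212 bp. Psmb8, which takes the place of Psmb5, had 401 bp (chr17:34197396-34197796), the narrowest widest peak of the 45 marked members. Of this, 394 bp lay upstream and 7 bp downstream of the principal TSS, and the RefSeq start, 405 bp farther downstream, lay 399 bp outside the peak. Psmb9, which takes the place of Psmb6, had 572 bp (chr17:34187398-34187969), with 205 bp upstream and 367 bp downstream. This peak also reached the TSS of Tap1, the peptide transporter gene that is transcribed the other way, so it cannot be assigned to either gene alone. Psmb8 and Psmb9 lie 10026 bp apart by their principal TSSs and shared 0 peaks.

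Psmb10, which takes the place of Psmb7, stood apart from both. Its peak of 2037 bp (chr8:105936460-105938496) was the second widest among members, wider than the widest peak of 84.68% of all marked genes. It began 52 bp upstream of the principal TSS and ran 1985 bp into the gene, and exons made up 67.84% of its bases. No other coding gene had a TSS within 1 kb of this peak. Psmb8 and Psmb9, by contrast, exceeded 3.364% and 7.461% of marked genes. Ptprc, Cd3e and Itgam, which mark immune cells, had 0 peaks in these cells.

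Around the immune forms, all 8 genes of antigen presentation and its control that were listed had a peak, beside 60.3% of all genes and 90.2% of genes with an island. B2m, the light chain of MHC class I, had 1279 bp, and Tap2, the partner of Tap1, had 641 bp. The widest peak at Irf1, a transcription factor of the interferon response, measured 1378 bp, and that at Nlrc5, an activator of MHC class I genes, 722 bp. The median over these 8 genes was 1248.5 bp. The 3 marked immune subunits had 401, 572 and 2037 bp, and the peak of 572 bp at Psmb9 is also that of Tap1, which is among the 8.

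Peak width was described next, by the widest peak of each gene. The median over the 45 marked members was 1189 bp (quartiles 879 and 1429 bp), and over all 12545 marked genes it was 1264 bp (quartiles 916 and 1718 bp). Of the members, 19 lay above the median of all genes, 5 above the upper quartile and 13 below the lower quartile. Constitutive members alone had a median of 1195 bp and a range of 510 to 2633 bp. The lower quartile and median of the members thus lay somewhat below those of all genes, and the upper quartile lay farther below. Constitutive members with an island had a median of 1206.5 bp (quartiles 948 and 1430.5 bp). For all genes with an island it was 1312 bp (quartiles 976 and 1774 bp).

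**Figure D2:**
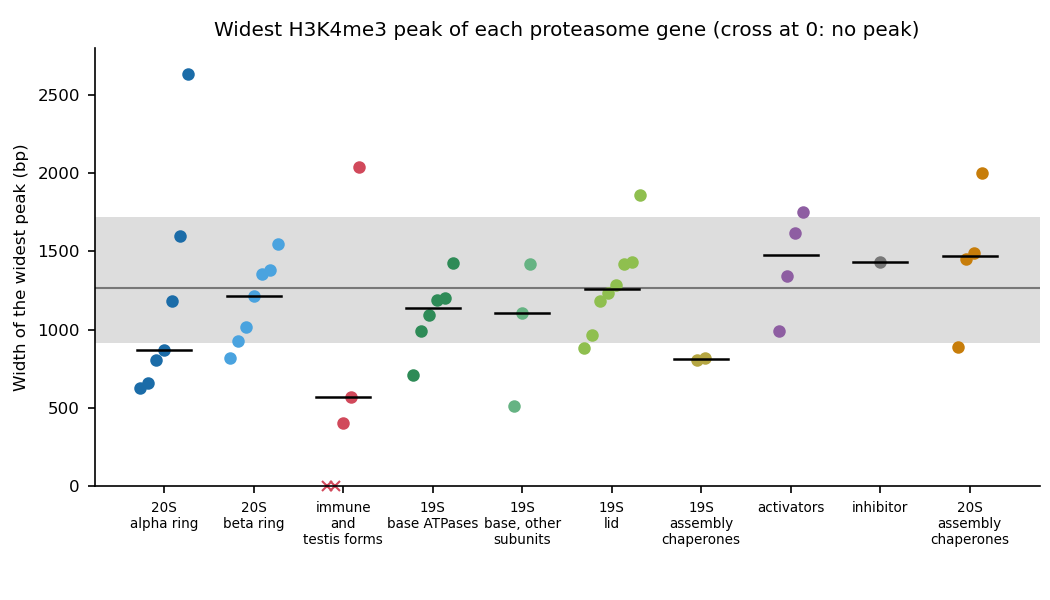
Width of the widest H3K4me3 peak (bp) of each of the 47 members by role, with 1 point per gene, black bars at group medians of marked genes and crosses at 0 for genes without a peak. The grey band and line give the quartiles (916 and 1718 bp) and median (1264 bp) of all marked genes. Psma7, Psmb10 and Psmg2 stand highest at 2633, 2037 and 2004 bp, and Psmb8 lowest at 401 bp.

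Within the 20S core, the 7 alpha ring genes, which form the gated outer rings, had a median of 871 bp and the 7 beta ring genes 1212 bp. The alpha ring held both the widest and several of the narrowest peaks. Psma7 had 2633 bp (chr2:180041002-180043634), also within 1 kb of a TSS of Ss18l1, whereas Psma5 had 627 bp and Psma2 659 bp. Psma6 had 1596 bp and Psma3 1183 bp, and Psma4 and Psma1 had 871 and 805 bp. In the beta ring, the noncatalytic subunits Psmb4, Psmb2, Psmb3 and Psmb1 had 1549, 1384, 1354 and 1018 bp.

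In the 19S cap, the 6 ATPases of the base, which unfold substrates, ranged from 711 bp at Psmc6 to 1424 bp at Psmc1, with a median of 1140.5 bp. Psmd1 and Psmd2, the large scaffold subunits of the base, had 1419 and 1103 bp. Psmd4, a ubiquitin receptor, had 510 bp (chr3:95042103-95042612), the narrowest among constitutive members. The 8 genes of the lid had a median of 1258.5 bp. Among them Psmd14, the deubiquitinase that removes ubiquitin chains during degradation, had the narrowest at 879 bp, its partner Psmd7 had 1435 bp, and Psmd8 had the widest at 1861 bp.

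Assembly factors and activators were marked as well. The chaperones of the base, Psmd5 and Psmd9, had 817 and 807 bp. The 4 chaperones of the 20S core had a median of 1470.5 bp, from 891 bp at Psmg1 to 2004 bp at Psmg2. The activators, which open the core without the 19S cap, ranged from 992 bp at Psme1 through 1344 bp at Psme2 and 1615 bp at Psme3 to 1754 bp at Psme4. The peak of 1344 bp at Psme2 lay wholly upstream of its principal TSS and also within 1 kb of a TSS of Rnf31. Psme1 and Psme2 encode the pair of subunits of the interferon-inducible activator, and their principal TSSs lie 12.7 kb apart on chromosome 14.

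Psmf1, which encodes a protein first described as a proteasome inhibitor, was the only constitutive member with no peak within 1 kb of its principal TSS. Its peak of 1429 bp (chr2:151740195-151741623) lay 2563 to 3991 bp downstream, at an alternative start, and the RefSeq start, 2876 bp downstream of the principal TSS, was inside it. When each gene was reduced to the TSS at its 5′ end, Psmf1, Psma6, Psmd5 and Psmd9 had no peak, and 38 of 42 constitutive members remained marked.

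The arrangement of peaks around the TSS was then examined. More than 1 peak was assigned to 18 of 47 members (38.3%), beside 24.4% of all genes. All 18 were constitutive, with 2 peaks at 12 genes, 3 at 5 genes and 4 at Psmb1. Among marked genes alone the shares were alike, 40% of the 45 marked members and 40.4% of all marked genes. Genes with more annotated starts also offer more windows, and the median number of distinct starts was 5 for members and 3 for all genes.

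At 10 of the 42 constitutive members (23.8%) the principal TSS fell in a gap between 2 peaks, beside 8.63% of all marked genes. The gaps at these genes ranged from 78 to 274 bp, with a median of 141.5 bp, and the median over all genes so arranged was 169 bp. The narrowest gap was at Psmg1, between peaks of 736 and 891 bp. The gap of Psmc3 was 92 bp (peaks of 435 and 1201 bp), that of Psmd9 103 bp (308 and 807 bp) and that of Psmb7 119 bp. These genes have different roles, an assembly chaperone of the core, an ATPase, an assembly chaperone of the base and a protease subunit.

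Gaps were 139 bp at Psme2 (peaks of 456 and 632 bp, beside another of 1344 bp farther upstream), 144 bp at Psma1 (399 and 805 bp) and 165 bp at Psma3 (215 and 1183 bp). The widest were 196 bp at Psmd4 (242 and 510 bp, beside a downstream peak of 395 bp), 222 bp at Psmc6 (236 and 711 bp) and 274 bp at Psmd14 (295 and 879 bp, beside a downstream peak of 340 bp). In 10 of these 10 genes the downstream peak was the wider of the pair that flanked the TSS, beside 79.6% of the 1083 genes so arranged. At Psmd14 none of the 250 bases before the RefSeq start lay in a peak, and the start itself lay 21 bp outside, so the stretch printed above falls in the gap. At Psmc6 only 32 of the 250 bases lay in a peak. Its RefSeq start, 36 bp from the principal TSS, lay inside the downstream peak, so its gap holds for the principal TSS only.

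The other 8 members with several peaks had a peak over the principal TSS. Psma2, Psmb3, Psmc5 and Psmd3 paired it with a separate upstream peak of 641, 658, 1135 and 333 bp, respectively. At Psma5 the peak over the TSS measured 457 bp, and a wider one of 627 bp followed downstream. Psmb1 had peaks of 1018 and 306 bp near its principal TSS and a further 302 and 805 bp at an upstream start, which also reached Tbp, the gene of the TATA-binding protein. Psmd5 had 3 peaks of 438, 520 and 817 bp, and Psmd13, a lid subunit, had 267, 1284 and 360 bp. Each peak of Psmd13 also lay within 1 kb of a TSS of its neighbour Sirt3.

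In total, 28 of 42 constitutive members (66.7%) had a peak over the principal TSS, beside 77.6% of all marked genes. At Psmc4 and Psmd8 the peak began 6 and 155 bp downstream of the TSS, and at Psmc2 it ended 45 bp upstream. Psmd8 thus had a wide peak that lay wholly inside the gene, and introns made up 76.03% of its bases. The RefSeq start of Psmc4, 9 bp from its principal TSS, lay inside its peak. Where a peak edge lies a few bp from the TSS, as also at Psmc6 (4 bp) and Psmd4 (2 bp), the arrangement can depend on the start chosen.

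For the 29 members whose widest peak contained the principal TSS, the position of the peak was measured along the direction of transcription. A median of 85.5% of the peak lay downstream of the TSS, against 74.7% over 8943 such genes in all. More than 50% of the peak was downstream in 27 of the 29 (93.1%) and in 85.8% of all such genes. The exceptions were Psmb8 with 1.746% and Psmg2 with 45.76%. The upstream edge lay within 100 bp of the TSS in 13 of the 29 (44.8%), beside 30.5% of all such genes. Over 6 lid genes the median downstream share was 98.4%. Of these, Psmd13 had 427 bp upstream and 66.74% downstream, and Psmd3, Psmd6, Psmd7, Psmd11 and Psmd12 had between 8 and 25 bp upstream of the TSS and from 951 to 1413 bp downstream.

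Peaks shared with a neighbouring coding gene were counted, because a union peak cannot be divided between both. The widest peak reached the TSS of another coding gene in 10 of 45 marked members (22.2%), beside 21.5% of all marked genes. The partners were Mrpl32 at Psma2, AY074887 at Psma4, Ss18l1 at Psma7, Tap1 at Psmb9, Dnajc2 at Psmc2, Ftsj3 at Psmc5, Sirt3 at Psmd13, Rnf31 at Psme2, Cep76 at Psmg2 and Gm26938 at Psmg3. Sirt3 encodes a mitochondrial deacetylase, Mrpl32 a mitochondrial ribosomal protein and Rnf31 a subunit of the ligase that builds linear ubiquitin chains. Of the 3 widest peaks, those of Psma7 and Psmg2 were shared in this way and that of Psmb10 was not.

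CpG islands, which accompany the mark at most promoters, were compared with it. An island lay within 1 kb of a TSS in 41 of 47 members (87.2%), beside 59.3% of all genes. Among constitutive members it was 40 of 42 (95.2%), and among the immune and testis forms only Psmb9, with an island of 316 bp. Over all genes, 90.2% of those with an island and 16.8% of those without one had a peak. With stricter islands, over 500 bp long, the shares were closer, 44.7% of members and 40% of all genes. Of the 6 members without an island at the usual setting, Psmb6, Psmd4, Psmb8 and Psmb10 were marked, and Psma8 and Psmb11 were not.

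The base composition of the 250 bases before the RefSeq start gave a similar order. The ratio of observed to expected CpG had a median of 0.784 over 35 constitutive members, 0.749 over all promoters of marked genes and 0.577 over all 15687 promoters. It was 0.578 at Psmb8, 0.554 at Psmb9, 0.22 at Psmb10 and 0.199 at Psmb11. Psmb10 and Psmb11 thus had nearly the same CpG ratio, and the first had one of the widest peaks among members and the second none. All 250 bases of Psmb11 lay in annotated exons, against 52 of those of Psmb10, so these ratios describe different kinds of sequence. Psmb10 held 3 CpGs in these 250 bases, Psmb5 15, Psmb6 10 and Psmd4 9. The highest ratio was 1.15 at Psmc4 and the highest GC content was 77.2% at Psma7.

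**Figure D3:**
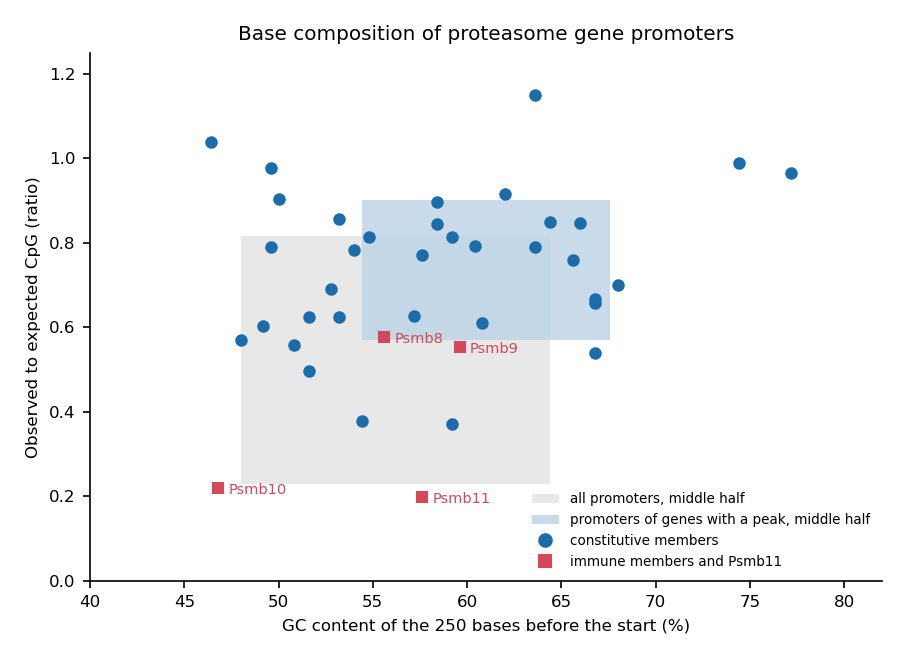
GC content (%) against the ratio of observed to expected CpG in the 250 bases before the RefSeq start, for 35 constitutive members (circles) and the 4 immune and thymic members with a sequence (squares, named). Rectangles span the quartiles of all 15687 promoters (grey) and of 9753 promoters of marked genes (blue). Psmb10 and Psmb11 lie at ratios of 0.22 and 0.199, under every constitutive member. All 250 bases lie in annotated exons at Psmb8, Psmb9 and Psmb11, and also at the constitutive Psma4 and Psmd13.

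Short sequence motifs of factors known to act at housekeeping or proteasome promoters were searched in the same 250 bases, on both strands. A match describes letters only and not binding. The ETS core, bound by ETS factors such as GABP, was found in 12 of 39 members with a sequence, beside 9.74% of all promoters and 14.1% of promoters of marked genes. All 12 were constitutive, which is 34.3% of 35. They were Psma6, Psmc1, Psmc2, Psmc6, Psmd2, Psmd4, Psmd6, Psmd11, Psmd12, Psme3, Psme4 and Psmg1. By role, these were 3 of 5 ATPases, 2 of 3 other base subunits, 3 of 6 lid genes and 2 of 4 activators with a sequence, against 1 of 7 alpha ring genes and 0 of the 4 beta ring genes searched. In the sequences above, it starts at -125 in Psmd4 and at -100 in Psmc6, counted from the RefSeq start, where in Psmc6 a GC box follows directly.

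The ARE, bound by NFE2L1 and NFE2L2, of which the first raises proteasome gene transcription when proteasome activity is low, was found in 5 of 39 members, beside 10.8% of all promoters. These were Psmb5 (at -47), Psmb6 (at -9), Psmc6 (at -227), Psmd9 (at -31) and Psmd12 (at -247). Both constitutive protease genes printed above therefore hold a match close to the start, in Psmb6 as the last bases shown, and Psmb10 holds none. The share among the 35 constitutive members, 14.3%, was close to the 12% of marked promoters.

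The GC box, bound by Sp factors, was found in 21 of 39 members, beside 45.2% of all promoters and 62.6% of marked ones. The NF-Y box was found in 12, beside 35.6%. An E-box was found in 4 members, Psma4, Psmb10, Psmd9 and Psme3, beside 6.83%. Matches to the recognition letters GCGCATGC of nuclear respiratory factor 1 (a factor unrelated to NFE2L1) occurred in Psma2 and Psmc5, beside 3.19%. A TATA box (TATAAA) occurred in Psmb4, Psmb8, Psmd1 and Psmd6 (10.3% of 39), beside 12% of all promoters and 5.86% of marked ones. The matches began at -78 and -76 in Psmb4, -237 in Psmb8, -122 in Psmd1 and -182 in Psmd6.

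The ISRE core, part of the element through which interferon acts, occurred in 3 members, Psmb3, Psmd4 and Psmd9, beside 7.03% of all promoters, and in 0 of the 4 immune and thymic forms. No member had the cAMP response element (TGACGTCA, 2.12% of promoters), whose first letters are shared with the ARE, or the YY1 motif (AAGATGGC, 1.49%). For Psmb8, 0 of the 250 bases before the RefSeq start lay in a peak and 250 lay in annotated exons of longer transcripts, so the motif counts and CpG ratio of this gene do not describe its marked sequence. The 250 bases of Psmb9 and Psmb11 were also wholly exonic, with 183 and 0 of them in a peak, so the count of 0 of 4 rests largely on such sequence.

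**Figure D4:**
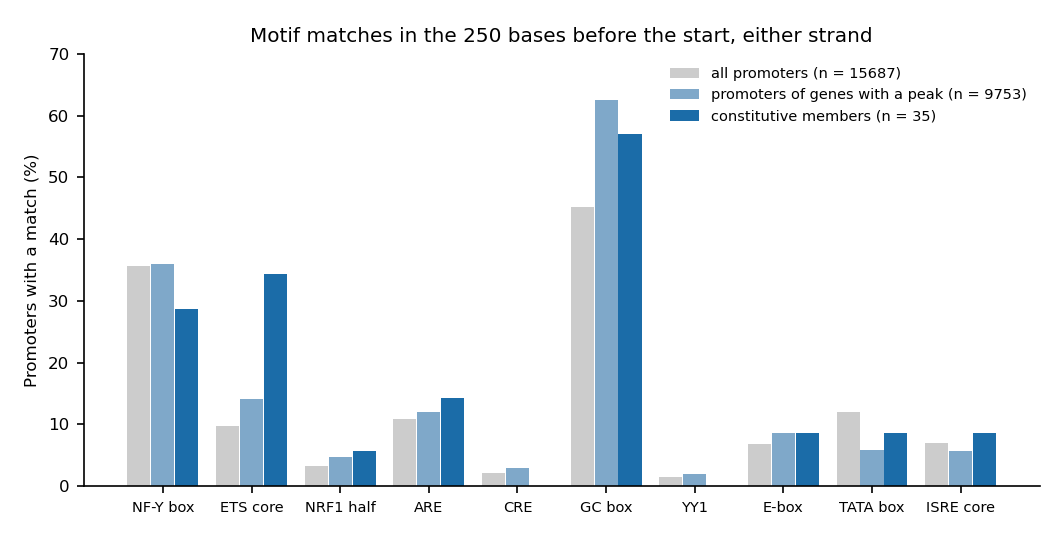
Share of promoters (%) with at least 1 match to each of 10 motifs in the 250 bases before the RefSeq start, on either strand, for all 15687 promoters, 9753 promoters of marked genes and 35 constitutive members. The ETS core has the largest difference between members and marked genes, 34.3% against 14.1%, and for the CRE and YY1 motifs the members are at 0.

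Putative enhancers were searched around the members. The authors defined them by H3K27ac, H3K4me1 and ATAC signal in control cells, leaving out 1 kb on either side of known mm10 TSSs. At least 1 lay within 50 kb of a TSS in 28 of 47 members (59.6%), beside 60.6% of all genes, and the median distance to the nearest one was 33.8 kb for members and 31.5 kb for all genes. The gene body held an enhancer in 6 members (12.8%), beside 25.8% of all genes. These were Psmb7, Psmc1, Psmd1, Psmd5, Psmd8 and Psmd9. At Psmd1, Psmc1, Psmd8 and Psmd9 the nearest enhancer lay 0, 102, 111 and 515 bp from an annotated TSS. These distances are under the 1 kb that the authors left out, so by the starts used here these regions are not outside promoters. Which starts the authors used was not checked. Longer genes offer more sequence for such an overlap, and gene length was not taken into account. Psmd11 had the most within 50 kb, 6, followed by Psma6 with 5, while the nearest to Psmb6 was 220.2 kb away. Of the immune and testis forms, Psmb8, Psmb9 and Psmb10 had 0 within 50 kb, Psmb11 and its neighbour Psmb5 had 3 each, and Psma8 had 1. Of the 70 distinct peaks assigned to members, 3 overlapped an enhancer, at Psmc1, Psmd5 and Psmd8.

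Genes that work with the proteasome were examined as a fixed list. All 37, which include the 8 antigen presentation genes above, had a peak. The share was 60.3% among all genes and 90.2% among genes with a CpG island. All of the listed genes but B2m had an island, and Tap1 shares its peak with Psmb9. The median widest peak of the list was 1218 bp. The widest belonged to Nfe2l1, the transcriptional regulator named above, with 4085 bp among 5 peaks, followed by Ecpas, a proteasome adaptor, with 2100 bp and Pomp, which guides assembly of the 20S core, with 2008 bp. Only Nfe2l1 exceeded every member. The genes through which dTAG acts were marked too: Crbn, the cereblon gene, had 821 bp, and Ddb1, Cul4a and Rbx1, its partners in the ligase, had 907, 1581 and 829 bp.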

How the data were processed

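The authors trimmed reads with Trim Galore, aligned them to mm10 with BWA, filtered them with SAMtools, merged replicates with Picard and called narrow H3K4me3 peaks with MACS. Of what they deposited, peak positions (other values, in bp) as a union over all libraries and positions of putative enhancers were used, and their list of sites changed at each time point was not used here. Versions are not given in the sources used here. Starts of the peak list count from 0 and were raised by 1. Both lists hold 0 columns of values per sample, so the depth reached per library is not known from them, and neither replicate error nor any test was possible.

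TSSs came from GENCODE release M21 and coordinates from the same build, GRCm38. On the 19 autosomes, 0 regions passed a chromosome end. CpG islands were called from the repeat-masked reference (score 17 per CpG and -1 otherwise, over 200 bp, GC over 50%, observed to expected CpG over 0.6). Motifs were searched before RefSeq starts, since the sequences given are RefSeq's, and not before the principal GENCODE TSS as first designed. Counts are set beside the same count over all autosomal protein-coding genes, with Wilson 95% intervals.

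All members are named by role, with full values for the immune, thymic and testis forms, the protease subunits, members without a peak or with several, the 3 widest and narrowest, and shared peaks. Of related genes, those without a peak and the 3 widest were to be named. The cereblon ligase and antigen presentation genes, and members named for motifs, composition, one-sided peaks or enhancers, were added after their values were seen. The members and lists were chosen with earlier results of these data known. Functions were tested on simulated data, where 0 of 2000 interval queries differed from brute force and 60 of 60 planted islands were recovered. Python 3.11.15, NumPy 2.4.6, SciPy 1.17.1, Numba 0.67.0 and Matplotlib 3.10.9 were used.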

Additional observations from a re-analysis of the deposited data

How the results depend on the processing

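No paired analysis was possible because both lists used here give positions pooled over libraries, although the labels share replicate numbers, and leaving out replicates was not possible for the same reason. Of 75 alternatives, all fixed at the start, 63 gave a value labelled as close to the reported one. The bound for counts was wide, and sets in which every gene was marked had little room to change. Enhancers within 25 kb were found at 20 members (44.8% of all genes) and within 100 kb at 39 (76%), against 28 within 50 kb. Both counted as close. The count of marked members stayed between 41 and 45 over 9 settings of TSS, window and peak set. It was 41 (38 constitutive) with 1 TSS per gene at the 5′ end, and 44 with peaks of at least 500 bp, where Psmb8 was lost. The median width rose to 1435 bp with peaks merged within 1 kb (all genes 1639 bp) and to 1424 bp with summed peaks (all genes 1519 bp). Stricter islands (over 500 bp, GC over 55%, ratio over 0.65) left 21 members (44.7%, all genes 40%). Enhancers in the gene body in place of 50 kb gave 6. With motifs searched in 100 bases before the start, NF-Y boxes were found in 7 members (21% of all promoters), NRF1 letters in 1 (2.12%), the ARE in 3 (5.31%), E-boxes in 2 (3.63%), the TATA box in 1 (5.99%) and the ISRE core in 1 (2.32%). From 250 bases before to 50 after the start, YY1 letters were found in 3 (3.25%) and the ISRE core in 6 (8.23%). The ETS core was found in 9 and 14 members, beside 6.59% and 12.6% of promoters.

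A union list cannot show whether a peak was present before dTAG, in both replicates, or lost later. Gaps and counts of peaks rest on where narrow peaks were split, and merging within 1 kb closes the members' gaps by construction.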

Other observations

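Proteasome genes outside the symbols or chromosomes described above were also read from the list. Psmd10, which encodes gankyrin, a chaperone of the 19S base, lies on chromosome X and had 0 peaks, with the nearest peak 290421 bp away. Of 948 protein-coding genes of chromosome X, 421 (44.4%) had a peak. Psme2b, a coding copy related to Psme2, had 0 peaks, with the nearest 73947 bp away. The processed pseudogenes Psmb5-ps, Psmb6-ps, Psmb6-ps2 and Psmb7-ps2 had 0 peaks, with the nearest 3266, 2357, 516256 and 26879 bp away. Psmc3ip, whose product acts in meiotic recombination and is no proteasome subunit, had 1 peak of 1333 bp (chr11:101094743-101096075).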
